A study of Mus musculus with 24 samples.

Results

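NF-kB subunits and feedback genes were followed in NIH-3T3 mouse embryonic fibroblasts treated with IFN-alpha or IFN-gamma. The set was every probe set (a group of array probes read together as 1 signal) whose platform gene symbol was Nfkb1, Nfkb2, Rel, Relb, Nfkbia, Nfkbiz, Bcl3, Tnfaip2 or Tnfaip3. This gave 18 of 45037 probe sets for 8 of the 9 genes, and Nfkb1 was not analysed here. Total cellular RNA was measured on 24 one-colour Affymetrix arrays in 7 groups. Cells given IFN-alpha at 100 U/ml, cells given IFN-gamma at 100 U/ml and mock cells given fresh medium alone were taken at 1 h, with 4 arrays each. All of these carried 4-thiouridine (4sU), which cells take up and use as they make RNA, at 200 uM over the whole 60 min. The same treatments were taken at 3 h, with 3 arrays each and 500 uM 4sU from 150 to 180 min. Mock cells left without 4sU were also taken at 1 h, on 3 arrays. All groups had received fresh medium at the start, and all are of 1 cell line, whose replicates the labels do not describe as separate cultures.

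NF-kB is a family of transcription factors that bind DNA as dimers and drive genes of inflammation and cell survival. IkB proteins hold the dimers in the cytoplasm until a kinase complex, switched on by ligands such as TNF, IL-1 or bacterial products, marks the IkB protein for destruction. Among the genes that NF-kB then switches on are those of its own inhibitors, so the response limits itself. Interferons act mainly through STAT factors, which bind other sites: IFN-gamma through the GAS element, and IFN-alpha mainly through the ISRE.

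Promoter sequences were available from RefSeq (GRCm38.p6) for 6 of the 9 genes, as 9 windows that run from 250 bases before a transcript start to 20 bases after it. Sequences of Nfkb1, Relb and Nfkbiz were not used here. The windows shown are of genes whose transcripts carry the results below. Bcl3 (chr7:19822736-19823005, minus strand) and Tnfaip2 (chr12:111442411-111442680, plus strand) differed with interferon, and Nfkbia (chr12:55492628-55492897, minus strand) and Tnfaip3 (chr10:19015391-19015660, minus strand) between the mock times. Each is written 5′ to 3′ on the strand of its gene, and capitals mark matches to the kappaB consensus on either strand. Tnfaip3 has another window, chr10:19011944-19012213, which held no match and is not shown.
Bcl3: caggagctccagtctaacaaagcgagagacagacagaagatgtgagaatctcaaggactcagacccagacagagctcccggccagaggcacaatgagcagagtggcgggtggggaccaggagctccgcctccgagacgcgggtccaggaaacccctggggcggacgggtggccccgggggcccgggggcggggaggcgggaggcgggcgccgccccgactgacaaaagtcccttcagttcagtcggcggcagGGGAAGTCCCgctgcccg
Tnfaip2: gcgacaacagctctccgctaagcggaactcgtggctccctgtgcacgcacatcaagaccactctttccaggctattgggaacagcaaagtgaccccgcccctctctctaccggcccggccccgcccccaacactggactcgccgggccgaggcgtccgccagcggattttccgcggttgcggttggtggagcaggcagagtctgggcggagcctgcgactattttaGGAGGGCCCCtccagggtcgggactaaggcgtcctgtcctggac
Nfkbia: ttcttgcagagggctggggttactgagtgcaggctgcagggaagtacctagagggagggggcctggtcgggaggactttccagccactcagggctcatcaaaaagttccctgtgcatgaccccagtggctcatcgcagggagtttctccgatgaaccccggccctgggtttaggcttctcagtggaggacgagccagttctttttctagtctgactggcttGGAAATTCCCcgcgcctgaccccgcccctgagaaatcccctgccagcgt
Tnfaip3: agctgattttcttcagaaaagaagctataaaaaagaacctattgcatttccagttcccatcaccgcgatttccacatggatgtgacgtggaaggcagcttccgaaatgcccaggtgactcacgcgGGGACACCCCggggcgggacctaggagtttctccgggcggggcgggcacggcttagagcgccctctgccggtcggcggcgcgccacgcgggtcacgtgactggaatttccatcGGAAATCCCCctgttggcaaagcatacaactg
The kappaB consensus matched in 8 of the 9 windows, and in at least 1 window of each of the 6 genes, beside 7.69% of 32851 mouse windows of the same length and 8.71% of 27025 genes. Nfkb2 windows chr19:46305445-46305714 and chr19:46305680-46305949 overlap and share a GGGACTTTCC site, the only match of the latter. The genes were chosen as NF-kB subunits and feedback genes, and the difference from all windows was not tested. The GAS element (TTCNNNGAA, either strand) matched in 1 window of 1 gene, Nfkb2, where it did not overlap a kappaB match, beside 7.58% of all windows and 8.74% of genes. The ISRE core (GAAA, NN and GAAA in a row, either strand) matched in 0 of these windows, beside 3.21% of all windows. A match is a run of letters and was not tested as a binding site.

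The array medians of the log2 GCRMA signals were 2.95 to 3.11. A signal below log2 4 was taken as background, and each difference given is that of 2 group means on the log2 scale, ± its standard error (SE) in limma. Of the 18 probe sets 16 exceeded log2 4 on at least 3 arrays and were tested, and a difference is called where its p, adjusted over all 19305 probe sets so tested, is under 0.05. A second fit, given as with the block, compares arrays that share a replicate number, since such arrays deviated from their group means together. Where arrays of 2 groups are said to overlap or not, this is a description. The share of all probe sets whose groups separate was not counted, and small groups can separate by chance. Of 10 fibroblast markers 10 lay above background (median 12.58, Vim highest at 13.8), as did 1 of 8 leukocyte markers (Cd14 at 5.35), 0 of 5 epithelial and 0 of 4 endothelial markers. The 3′ actin probe set exceeded the 5′ one by 2.22 to 3.43 on 5 arrays, replicate 2 of each 1 h group and replicate 3 of the mock cells without 4sU, and by 0.78 to 1.37 on the other 19. Irf1, which both interferons induce through STATs, was higher with interferon than in mock cells in each comparison at 1 h and 3 h, by 0.98 (IFN-alpha at 3 h) to 5.28 (IFN-gamma at 1 h). In whole-culture RNA, a smaller share of responding cells and less RNA per cell cannot be told apart.

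Tnfaip2 was the member that moved most with interferon. Its transcript was 3.41-fold higher with IFN-gamma than in mock cells at 1 h and 5.32-fold higher at 3 h, and was not called with IFN-alpha. The atypical IkB genes Bcl3 and Nfkbiz were also higher with IFN-gamma. Nfkbiz passed at 3 h with and without the block, and at 1 h with it. Bcl3 passed with the block at 1 h and 3 h, and without it under some of the alternatives given below. With IFN-alpha, Bcl3 and 1 probe set of Nfkbiz passed at 1 h with the block. The subunit genes and the inhibitor genes Nfkbia and Tnfaip3 were not called with either interferon at either time. In mock cells Nfkbia, Nfkbiz and Tnfaip3 were lower at 3 h after fresh medium than at 1 h.

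**Figure D1:**
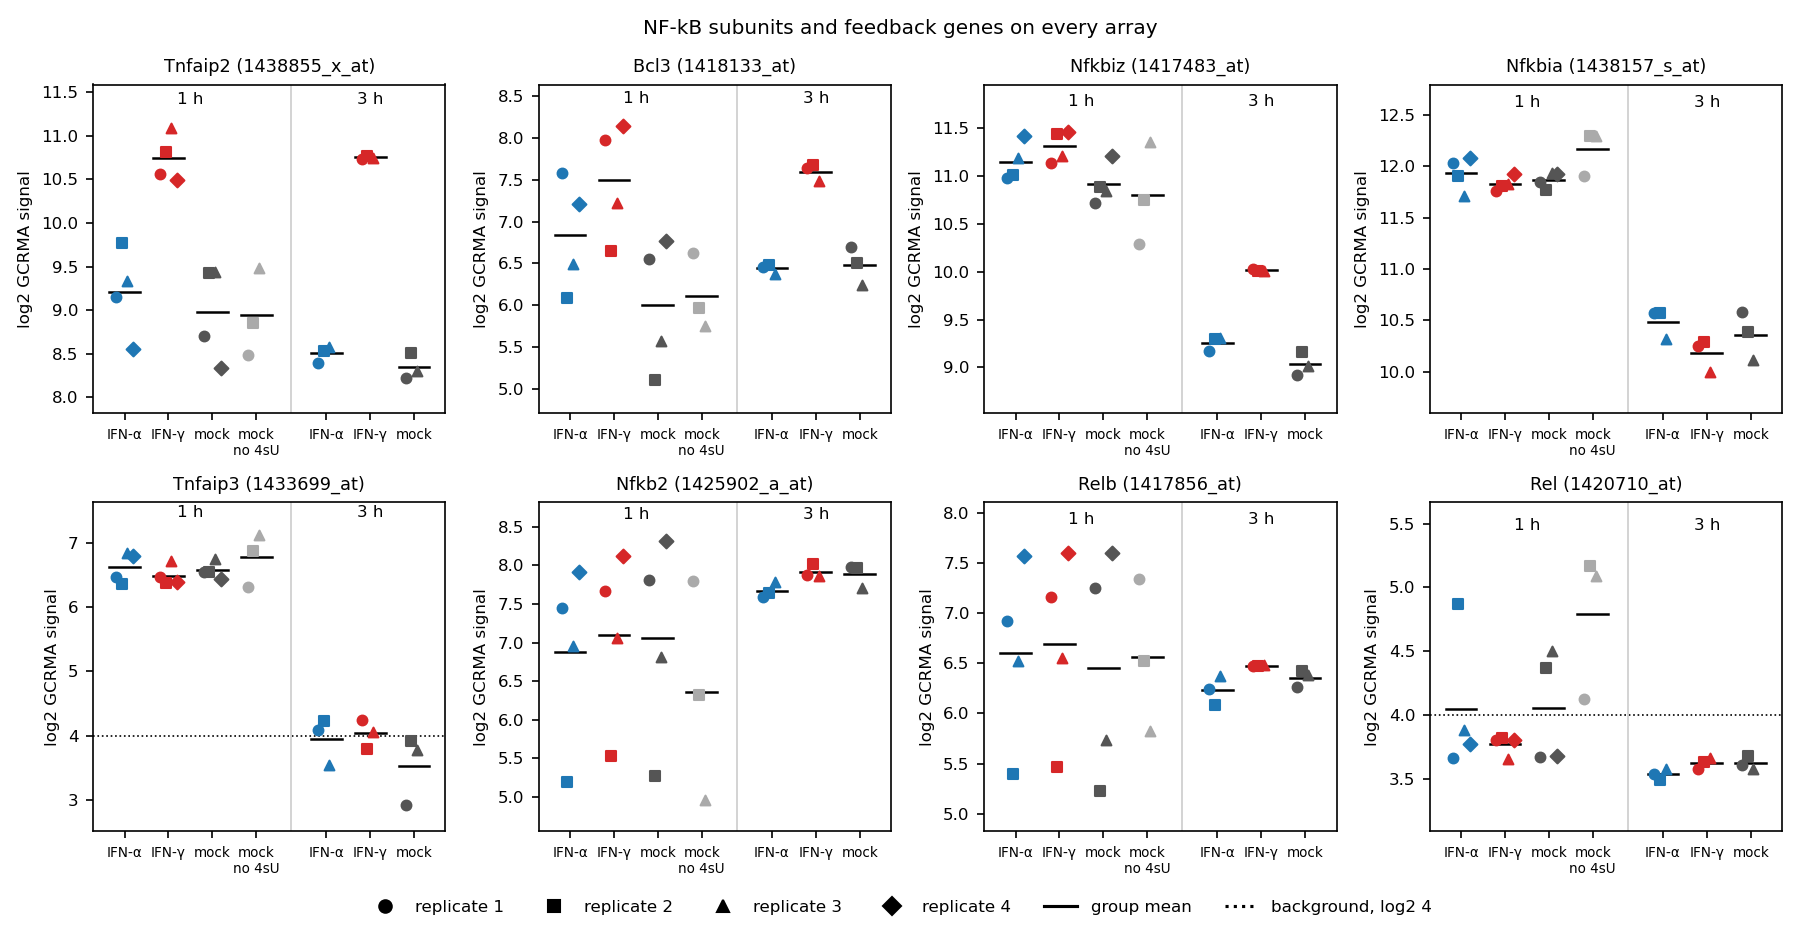
The log2 GCRMA signal of the main probe set of each of the 8 measured genes on all 24 arrays, by group, with 1 h groups left of the grey line and 3 h groups right of it. Symbols give the replicate number, bars the group mean and the dotted line log2 4. For Tnfaip2 every IFN-gamma array lies above every other array, and the replicate 2 arrays at 1 h with 4sU (squares) lie low for Nfkb2, Relb and Bcl3.

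The subunit genes were Nfkb2 and Relb, which make the dimer of the non-canonical pathway, and Rel, a subunit best known from lymphocytes. Nfkb2 (probe set 1425902_a_at) had signals of 7.45, 5.19, 6.96 and 7.91 with IFN-alpha at 1 h and 7.67, 5.53, 7.07 and 8.13 with IFN-gamma, against 7.82, 5.27, 6.82 and 8.32 in mock cells. At 3 h the signals were 7.59, 7.64 and 7.78 with IFN-alpha and 7.88, 8.01 and 7.86 with IFN-gamma, against 7.98, 7.97 and 7.71 in mock cells. The groups overlapped at both times, and in each of these 1 h groups the lowest array was replicate 2, the array with the high 3′ to 5′ actin difference; the part of that difference in the Nfkb2 signal was not tested. Differences from mock lay between -0.22 and 0.04 for this probe set, with 95% intervals from -1.83 to 1.64 at the widest. The second probe set (1429128_x_at), whose x suffix marks probes that may also match other transcripts, gave -0.03 to 0.09.

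Relb (1417856_at) ran from 5.23 to 7.61 at 1 h, again lowest on replicate 2 in the groups with 4sU, while replicate 3 was the lowest of the mock cells without 4sU (5.82). It averaged 6.24 ± 0.15 with IFN-alpha at 3 h and 6.48 ± 0.01 with IFN-gamma, against 6.36 ± 0.08 in mock cells (SD, n = 3 each). The 3 IFN-gamma arrays (6.47, 6.48 and 6.49) lay above the 3 mock arrays (6.27, 6.42 and 6.38), by 0.12 ± 0.59 (SE, limma, adjusted p = 1, and 0.889 with the replicate block). Rel (1420710_at) was above background on 6 of 24 arrays, at 4.12 to 5.17, and on 0 of the 9 arrays at 3 h. Its differences from mock were -0.28 to 0.00, and none of the 16 tests of these 4 subunit probe sets against mock passed, with or without the block. The other measured genes of these families, the subunit gene Rela and the IkB genes Nfkbib and Nfkbie, were not called in any comparison with mock either, with differences from -0.24 to 0.26.

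Nfkbia encodes the IkB protein that is destroyed and made again in the classical feedback loop. Its main probe set (1438157_s_at) had signals of 12.03, 11.91, 11.71 and 12.08 with IFN-alpha at 1 h and 11.76, 11.81, 11.83 and 11.92 with IFN-gamma, against 11.85, 11.77, 11.94 and 11.92 in mock cells. At 3 h they were 10.57, 10.57 and 10.32 with IFN-alpha and 10.25, 10.29 and 9.996 with IFN-gamma, against 10.58, 10.38 and 10.11 in mock cells. On this probe set the interferon arrays overlapped the mock arrays at both times. On 1420088_at every IFN-gamma array at 3 h (9.89 to 9.98) lay below every mock array (10.09 to 10.21). The same held on 1448306_at (8.52 to 8.74, against 8.77 to 8.86). Neither difference was called, with or without the block. These groups overlapped on 1449731_s_at (8.20 to 8.38, against 8.21 to 8.59) and on 1420089_at, where both lay below background. Over the 5 probe sets of Nfkbia the differences from mock were -0.15 to 0.13 with IFN-alpha and -0.28 to -0.04 with IFN-gamma at 1 h, and 0.00 to 0.19 and -0.21 to -0.09 at 3 h. The 95% interval of the main probe set at 3 h was -0.18 to 0.44 with IFN-alpha and -0.49 to 0.13 with IFN-gamma. Between the interferons at 3 h, the IFN-alpha arrays lay above the IFN-gamma arrays by 0.31 ± 0.15 (limma, adjusted p = 1, and 0.091 with the block). That difference was called with array weights (0.32, adjusted p = 0.00429) and, in an alternative added after seeing the data, with the block over 3 h arrays alone (0.31, adjusted p = 0.0423).

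Bcl3 encodes an atypical IkB protein that works in the nucleus, where it binds NF-kB dimers that lack an activation domain. It has 1 probe set (1418133_at). At 1 h its signals were 7.59, 6.08, 6.49 and 7.22 with IFN-alpha and 7.98, 6.65, 7.22 and 8.14 with IFN-gamma, against 6.56, 5.11, 5.57 and 6.77 in mock cells. The groups overlapped, yet for each replicate number the IFN-gamma array was the highest and the mock array the lowest, and replicate 2 was the lowest array of each of these groups. Same-numbered differences from mock were 1.38 to 1.66 with IFN-gamma and 0.45 to 1.03 with IFN-alpha, 4 of 4 higher in both.

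For Bcl3 the fit without the block, whose SE holds the spread between replicate numbers, gave 1.50 ± 0.37 for IFN-gamma at 1 h (2.83-fold, adjusted p = 0.108) and 0.84 ± 0.37 for IFN-alpha (1.80-fold, adjusted p = 1). With the replicate number as a block limma gave the same differences with an SE of 0.098, and adjusted p-values of 3.05e-07 for IFN-gamma and 0.000278 for IFN-alpha. Without the block the IFN-gamma difference also passed when IFN-gamma replicate 2 was left out (1.78, adjusted p = 0.0284) or mock replicate 4 (1.76, adjusted p = 0.0465), after quantile normalization (1.53, adjusted p = 0.0343) and with array weights (1.47, adjusted p = 0.0302).

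At 3 h Bcl3 had 6.46, 6.48 and 6.38 with IFN-alpha and 7.64, 7.67 and 7.48 with IFN-gamma, against 6.70, 6.51 and 6.24 in mock cells. Every IFN-gamma array lay above every mock and every IFN-alpha array, while IFN-alpha and mock arrays overlapped. IFN-gamma was higher than mock by 1.12 ± 0.43 (2.17-fold, adjusted p = 0.515 without the block and 9.6e-06 with it), and IFN-alpha differed by -0.04 ± 0.43 (adjusted p = 1, and 0.965 with the block). Bcl3 had SDs of 0.06 to 0.23 at 3 h but 0.45 to 0.79 at 1 h, and the fit gives all groups 1 spread. Fitted on 3 h arrays alone, the IFN-gamma difference passed (1.12 ± 0.12, adjusted p = 0.000304).

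The responses of Bcl3 to the interferons were set against each other directly. IFN-alpha was lower than IFN-gamma by 0.66 at 1 h (limma, adjusted p = 1, and 0.00195 with the block) and by 1.16 at 3 h (0.48, and 8.95e-06 with the block). The response to IFN-alpha was smaller at 3 h than at 1 h, by a difference of -0.88 between the responses (adjusted p = 1, and 0.00304 with the block), and that to IFN-gamma differed by -0.38 (adjusted p = 1, and 0.339 with the block). In order of mean level Bcl3 ran IFN-gamma at 3 h (7.60 ± 0.10), IFN-gamma at 1 h (7.50 ± 0.69), IFN-alpha at 1 h (6.84 ± 0.68), mock at 3 h (6.48 ± 0.23), IFN-alpha at 3 h (6.44 ± 0.06), mock at 1 h without 4sU (6.11 ± 0.45) and mock at 1 h (5.999 ± 0.79; SD, n = 4 at 1 h with 4sU and 3 otherwise). Each neighbouring pair in that order overlapped.

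**Figure D2:**
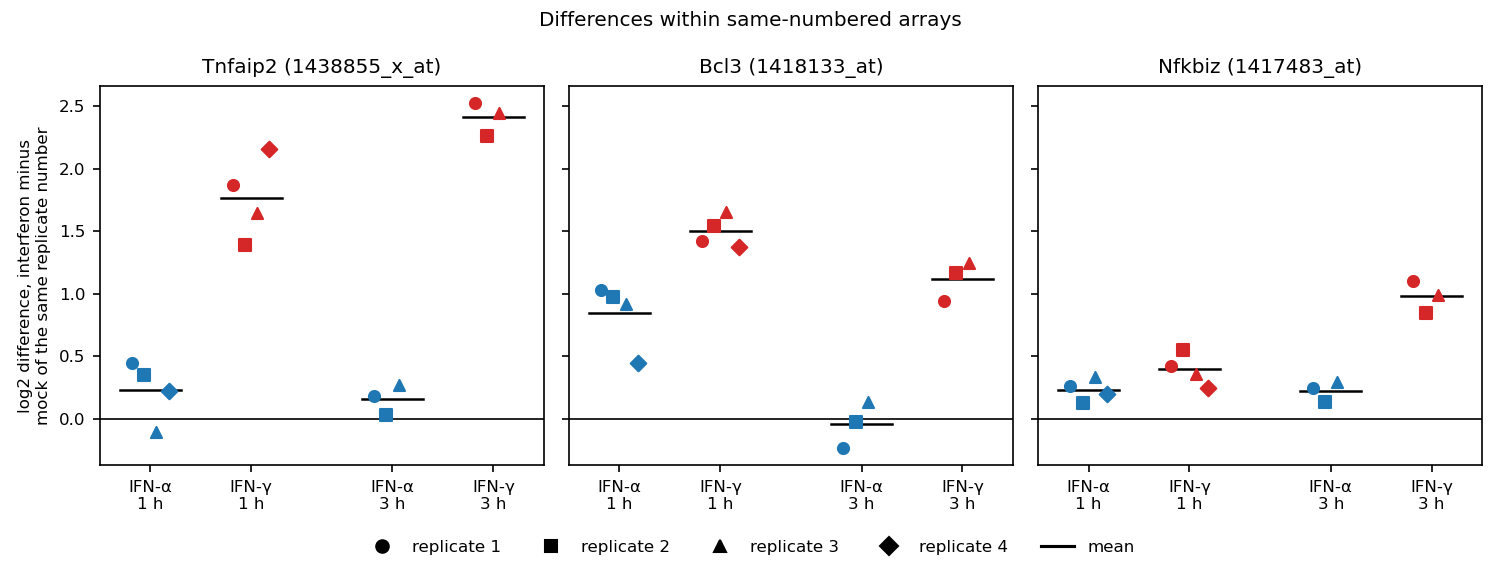
Log2 difference between each interferon array and the mock array of the same replicate number and time, for Tnfaip2, Bcl3 and Nfkbiz. Symbols give the replicate number and bars the mean. All Bcl3 differences with IFN-gamma lie between 0.94 and 1.66, while those with IFN-alpha lie between 0.45 and 1.03 at 1 h and between -0.23 and 0.14 at 3 h.

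Nfkbiz encodes IkB-zeta, another nuclear IkB protein, which NF-kB needs for a subset of its secondary targets such as Il6. Its main probe set (1417483_at) had signals of 10.98, 11.01, 11.18 and 11.41 with IFN-alpha at 1 h and 11.14, 11.44, 11.21 and 11.46 with IFN-gamma, against 10.71, 10.89, 10.85 and 11.21 in mock cells. At 3 h they were 9.17, 9.29 and 9.31 with IFN-alpha and 10.03, 10.01 and 10.01 with IFN-gamma, against 8.92, 9.16 and 9.01 in mock cells. Groups overlapped at 1 h, and at 3 h every IFN-gamma array lay above every IFN-alpha and every mock array. The lowest IFN-alpha array at 3 h (9.166) was barely above the highest mock array (9.159). On the other probe sets, 1448728_a_at and 1457404_at, IFN-alpha and mock arrays overlapped at 3 h.

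With IFN-gamma at 3 h Nfkbiz was 1.97-fold higher than in mock cells (0.98 ± 0.20, limma, adjusted p = 0.00643, and 3.56e-06 with the block), and this call was made under 15 of 15 alternatives (adjusted p from 1.32e-08 to 0.0466). The 2 further probe sets rose by 1.10 (1448728_a_at) and 0.78 (1457404_at) with the block alone (adjusted p = 5.71e-05 and 0.0179, against 0.509 and 0.199 without it). At 1 h IFN-gamma gave 0.40, 0.70 and 0.80 on the 3 probe sets, positive in all 12 same-numbered pairs; adjusted p was 1, 1 and 0.198 without the block and 0.0138, 0.00312 and 0.0137 with it. IFN-alpha gave 0.23, 0.54 and 0.29 at 1 h, of which the second passed with the block (adjusted p = 0.0483, and 1 without it), and 0.22, 0.26 and 0.10 at 3 h, none of which passed in either fit. With the block fitted on arrays of 1 time alone, chosen after seeing the data, Nfkbiz 1417483_at with IFN-gamma at 1 h (adjusted p = 0.121), 1457404_at with IFN-gamma at 3 h (0.059) and 1448728_a_at with IFN-alpha at 1 h (0.114) did not pass.

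Between the interferons at 3 h Nfkbiz was lower with IFN-alpha than with IFN-gamma by 0.76 ± 0.20 (adjusted p = 0.0681, and 6.65e-05 with the block), and its other probe sets by 0.84 and 0.68 (adjusted p = 0.000895 and 0.0472 with the block). The last of these did not pass with the block on 3 h arrays alone (1457404_at, adjusted p = 0.105). The response to IFN-gamma was larger at 3 h than at 1 h by 0.59 ± 0.27 (adjusted p = 1, and 0.0126 with the block), a change that the other probe sets did not pass in either fit. Its group means ran IFN-gamma (11.31 ± 0.16), IFN-alpha (11.15 ± 0.20), mock (10.92 ± 0.21) and mock without 4sU (10.80 ± 0.54) at 1 h, then IFN-gamma (10.01 ± 0.01), IFN-alpha (9.26 ± 0.08) and mock (9.03 ± 0.12) at 3 h. All 15 arrays at 1 h lay above all 9 at 3 h, and neighbours among the 1 h groups overlapped.

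Tnfaip3 encodes a ubiquitin-editing enzyme that switches off signalling upstream of the IkB kinases. On its measured probe set (1433699_at) it had 6.47, 6.36, 6.85 and 6.79 with IFN-alpha at 1 h and 6.47, 6.37, 6.71 and 6.40 with IFN-gamma, against 6.55, 6.54, 6.75 and 6.44 in mock cells. These groups overlapped, with differences of 0.05 ± 0.22 for IFN-alpha and -0.08 ± 0.22 for IFN-gamma. At 3 h it lay around background, at 4.09, 4.23 and 3.54 with IFN-alpha and 4.25, 3.80 and 4.06 with IFN-gamma, against 2.92, 3.92 and 3.77 in mock cells. Of those 9 arrays 4 lay above log2 4, all with interferon, and the differences of 0.42 and 0.50 were not called (adjusted p = 1 for both, and 0.592 and 0.333 with the block). A second probe set (1450829_at) was below log2 4 on all 24 arrays.

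Tnfaip2, first found as a TNF-induced transcript of endothelial cells, encodes a protein that shapes membrane protrusions. Its main probe set (1438855_x_at) also carries the x suffix, which marks probes that may also match other transcripts. On that probe set Tnfaip2 had 9.15, 9.77, 9.34 and 8.56 with IFN-alpha at 1 h and 10.57, 10.81, 11.09 and 10.49 with IFN-gamma, against 8.70, 9.42, 9.44 and 8.33 in mock cells. At 3 h it had 8.40, 8.53 and 8.58 with IFN-alpha and 10.74, 10.77 and 10.75 with IFN-gamma, against 8.22, 8.50 and 8.31 in mock cells. Every IFN-gamma array lay above every IFN-alpha and every mock array at both times, and IFN-alpha overlapped mock.

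The second Tnfaip2 probe set (1416273_at) separated the same groups. It had 6.43, 6.12, 6.05 and 6.25 with IFN-alpha at 1 h and 8.10, 6.80, 7.52 and 8.21 with IFN-gamma, against 6.06, 5.05, 5.47 and 6.05 in mock cells. At 3 h it had 5.75, 5.91 and 5.68 with IFN-alpha and 8.36, 8.56 and 8.32 with IFN-gamma, against 5.74, 5.92 and 5.57 in mock cells. The lowest IFN-gamma array at 1 h was replicate 2, which was also the lowest mock array. A further probe set (1457918_at) was below background on all 24 arrays, at 2.49 to 2.88.

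IFN-gamma raised Tnfaip2 by 1.77 ± 0.26 at 1 h (limma, adjusted p = 0.000633) and by 2.41 ± 0.30 at 3 h (5.32-fold, adjusted p = 1.82e-05), and the second probe set by 2.00 ± 0.26 (3.99-fold, adjusted p = 0.000105) and 2.67 ± 0.30 (6.37-fold, adjusted p = 3.58e-06). The 3 h calls were made under 15 of 15 alternatives for both probe sets, and the 1 h calls under 17 of 18. The exception was the fit on the 8 arrays of IFN-gamma and mock alone, where adjusted p was 0.108 and 0.178. The main fit gives all groups 1 spread, while the main probe set had SDs of 0.27 to 0.55 at 1 h and 0.01 to 0.15 at 3 h. Its SEs at 1 h thus draw on the closer 3 h arrays too. The fit on 1 h arrays alone was among those that made both 1 h calls. IFN-alpha gave 0.23 and 0.55 at 1 h and 0.16 and 0.04 at 3 h (adjusted p = 1 for each; 0.139 to 0.98 with the block), with 95% intervals of -0.32 to 0.77 on the main probe set at 1 h and -0.47 to 0.79 at 3 h.

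The direct contrast gave lower Tnfaip2 with IFN-alpha than with IFN-gamma, by 1.54 ± 0.26 at 1 h (adjusted p = 0.00462) and 2.25 ± 0.30 at 3 h (adjusted p = 6.21e-05). The second probe set gave -1.44 (adjusted p = 0.0076) and -2.63 (adjusted p = 5.97e-06). Fitted on these 8 arrays by themselves, the 1 h contrast did not pass (adjusted p = 0.289 and 0.589). The IFN-gamma response was 0.64 and 0.67 larger at 3 h than at 1 h on the 2 probe sets, which did not pass (adjusted p = 1 for both, and 0.121 and 0.171 with the block). By mean level the main probe set ran IFN-gamma at 3 h (10.75 ± 0.01), IFN-gamma at 1 h (10.74 ± 0.27), IFN-alpha at 1 h (9.20 ± 0.50), mock at 1 h (8.97 ± 0.55), mock at 1 h without 4sU (8.94 ± 0.51), IFN-alpha at 3 h (8.50 ± 0.10) and mock at 3 h (8.34 ± 0.15). The step from the lowest IFN-gamma array (10.49) to the highest IFN-alpha array (9.77) was the only one between neighbours that did not overlap.

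Of 16 probe sets tested, 0 were called with IFN-alpha at 1 h in limma (2 with an unadjusted p under 0.05), beside 0.259% of all 19305 tested. With the block 2 were called, both higher, beside 0.699% of all in either direction and 0.622% higher. With IFN-gamma at 1 h 2 were called, both of Tnfaip2 and higher, beside 0.492% of all in either direction and 0.435% higher. With the block the count was 6, all higher, of Tnfaip2, Bcl3 and Nfkbiz, beside 2.22% of all in either direction and 1.32% higher. With IFN-alpha at 3 h 0 were called in limma (0 with an unadjusted p under 0.05, and 0 with the block), beside 1.55% of all (3.06% with the block). With IFN-gamma at 3 h 3 were called, all higher and of Tnfaip2 and Nfkbiz, beside 1.99% of all in either direction and 1.88% higher. With the block 6 were called, of Tnfaip2, Nfkbiz and Bcl3, beside 5.33% of all in either direction and 3.86% higher. The median difference of the 16 was 0.09 and 0.07 with IFN-alpha and IFN-gamma at 1 h, and 0.07 and 0.08 at 3 h, beside -0.01, -0.04, -0.06 and -0.05 for all probe sets tested. These comparisons share the mock arrays of their time. Probe sets of 1 gene are repeated readings of it, and with the block the IFN-gamma calls were of 3 of 8 genes at each time. The members were chosen with earlier results of these data known. Their counts, here and below, are therefore a description beside the share of all probe sets and no test against it.

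**Figure D3:**
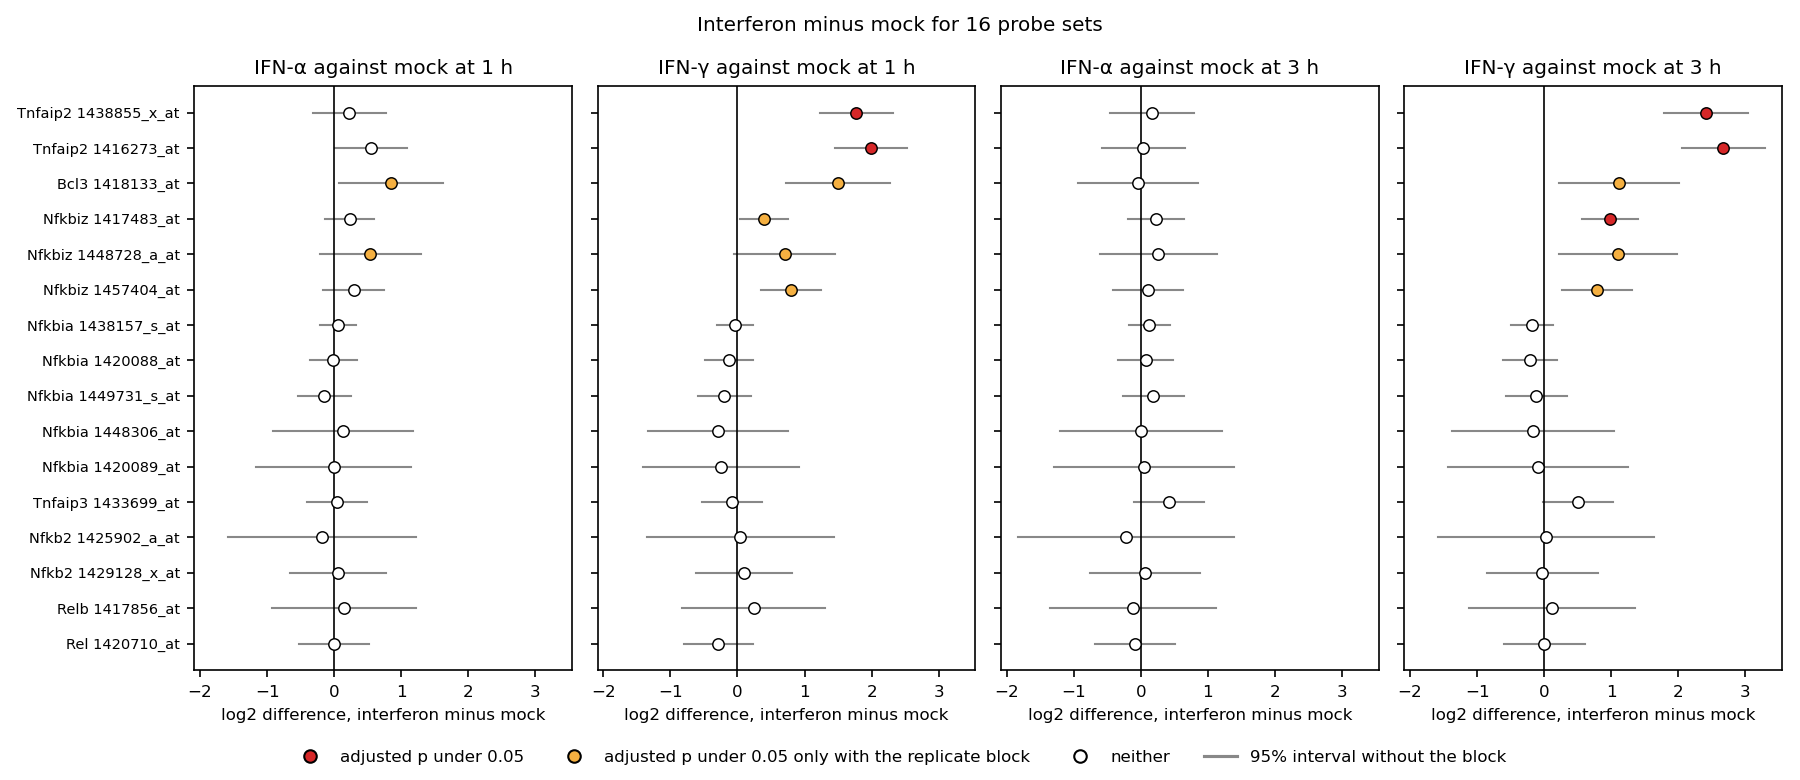
Log2 difference, interferon minus mock, of the 16 tested probe sets with its 95% interval from the fit without the block, for IFN-alpha and IFN-gamma at 1 h and 3 h. Red points passed in that fit, orange points only with the replicate block, white points in neither. Tnfaip2 is the row pair with red points for IFN-gamma at both times (1.77 to 2.67), and no row is red for IFN-alpha.

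Between the interferons 2 probe sets were called at 1 h, both of Tnfaip2 and lower with IFN-alpha, beside 0.363% of all in either direction and 0.259% lower. At 3 h the same 2 were called, again lower, beside 1.68% of all in either direction and 0.922% lower. With the block the counts were 3 at 1 h (Tnfaip2 and Bcl3), beside 2.08% of all in either direction and 1.08% lower, and 6 at 3 h (Nfkbiz as well), beside 4.69% and 2.5%. Of the change of each response from 1 h to 3 h, 0 of 16 passed for IFN-alpha and 0 for IFN-gamma in limma (0 and 1 with an unadjusted p under 0.05), beside 0.953% and 0.829% of all. With the block Bcl3 passed for IFN-alpha, lower, beside 2.02% of all in either direction and 0.166% lower. Nfkbiz (1417483_at) passed with the block for IFN-gamma, higher, beside 2.73% of all in either direction and 2.21% higher.

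Labelling was examined in mock cells at 1 h with 4sU against those without. In limma 0 of the 16 probe sets were called (2 with an unadjusted p under 0.05), beside 0.0311% of all. Rel was 0.74 ± 0.27 lower with 4sU (3.67, 4.37, 4.50 and 3.67 with 4sU, against 4.12, 5.17 and 5.09 without; limma, adjusted p = 0.548), and the groups overlapped. Nfkbia was 0.29 ± 0.14 lower on its main probe set (limma, adjusted p = 0.706), but its probe sets did not share a direction. Means with and without 4sU were 11.91 and 12.02 on 1420088_at and 10.81 and 10.98 on 1449731_s_at. They were 9.93 and 9.69 on 1448306_at and 5.82 and 5.68 on 1420089_at. The high values of Rel without 4sU were on replicates 2 and 3, the arrays with actin differences of 2.22 and 3.31; the part of array quality in this difference was not tested. With array weights Rel (-1.18, adjusted p = 0.00149) and Nfkb2 (1.28, adjusted p = 0.0339) were called, in a setting that called 20.1% of all 19305 probe sets.

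Mock cells at 3 h and at 1 h differed in several feedback genes. Time since the fresh medium, 4sU dose and labelling window changed together between these groups and cannot be told apart. Tnfaip3 was at 2.92, 3.92 and 3.77 at 3 h, against 6.55, 6.54, 6.75 and 6.44 at 1 h. The difference was -3.03 ± 0.23 (limma, adjusted p = 3.54e-08), at least 5.95-fold lower since the 3 h signals lay below log2 4. Nfkbiz was at 8.92, 9.16 and 9.01 at 3 h, against 10.71, 10.89, 10.85 and 11.21 at 1 h, which is 3.69-fold lower (-1.88 ± 0.19, adjusted p = 1.22e-06). Its second probe set was 3.96-fold lower (adjusted p = 0.0025), and 1457404_at differed by -0.55 (adjusted p = 0.13).

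Nfkbia was at 10.58, 10.38 and 10.11 in mock cells at 3 h, against 11.85, 11.77, 11.94 and 11.92 at 1 h. No 3 h array reached the 1 h range, and the signal was 2.85-fold lower (-1.51 ± 0.14, adjusted p = 4.3e-07). Of its other probe sets 1420088_at and 1449731_s_at were 3.43-fold and 5.20-fold lower (adjusted p = 1.84e-06 and 1.42e-07). Probe set 1448306_at differed by -1.13 (adjusted p = 0.177), with mock replicate 2 of 1 h at 8.75, just below the 3 h range of 8.77 to 8.86. It was called with the number 2 arrays of 1 h left out (-1.52, adjusted p = 0.00827, an alternative added after seeing the data). Probe set 1420089_at was lower by 2.13 (adjusted p = 0.0259, at least 3.53-fold since it lay below background at 3 h). That call ended without mock replicate 2 (adjusted p = 0.0952) or 3 (0.0555) of 1 h, or without replicate 1 (0.0759), 2 (0.0979) or 3 (0.0669) of 3 h.

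In all, and as a description, 7 of 16 probe sets were called lower at 3 h in mock cells, of Nfkbia, Nfkbiz and Tnfaip3, and 0 higher, beside 5.88% of all called lower, 5.45% higher and 11.3% in either direction. Tnfaip2 (-0.63 and 0.08 on its probe sets), Bcl3 (0.48), Nfkb2 (0.83 and -0.35), Relb (-0.10) and Rel (-0.43) were not called, with adjusted p from 0.148 to 0.919. The calls of Tnfaip3, of both called Nfkbiz probe sets and of Nfkbia other than 1420089_at were made under 15 of 15 alternatives. Nfkbia 1420089_at and Rel lay above log2 4 on 0 of 9 arrays at 3 h and so passed the filter on low values through 1 h arrays alone, and without 1420089_at the lower calls number 6. Tnfaip3 lay above log2 4 on all 15 arrays at 1 h and on 4 of 9 at 3 h.

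**Figure D4:**
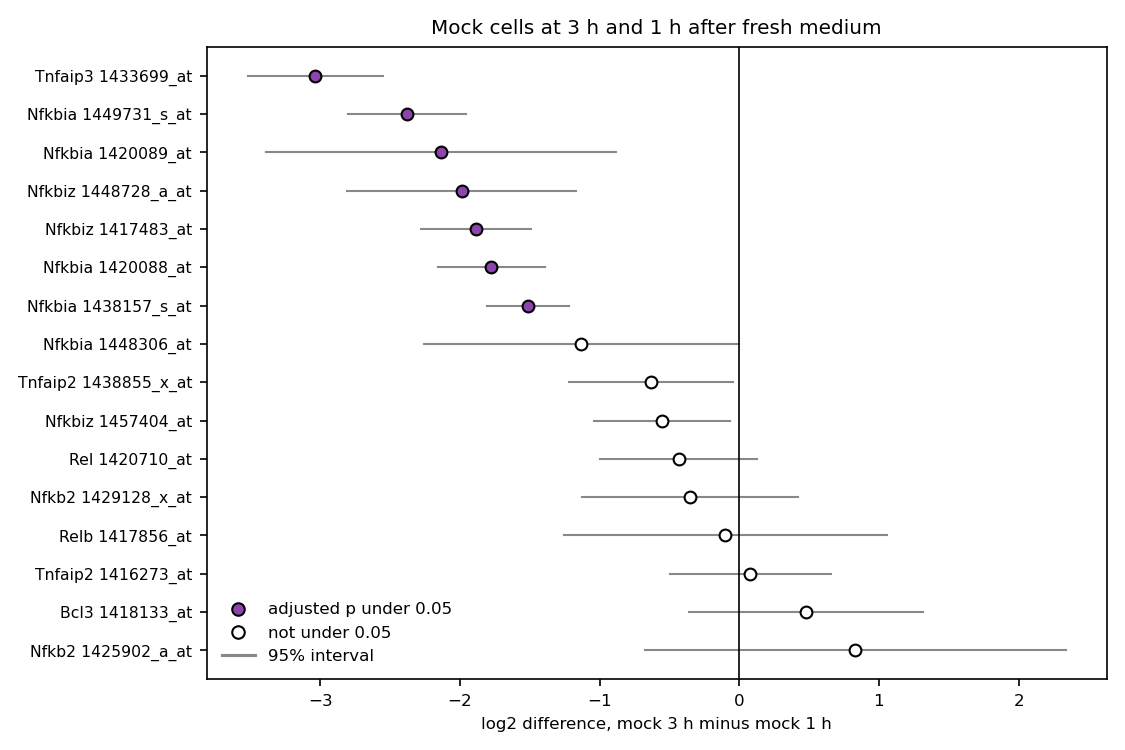
Log2 difference, mock at 3 h minus mock at 1 h, of the 16 tested probe sets with its 95% interval. Purple points passed in limma. The 7 purple points lie between -3.03 (Tnfaip3) and -1.51 (Nfkbia), and the intervals of Bcl3, Relb, Rel and Nfkb2 cross 0.

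The rest of the pathway was read from a list of 84 other genes, of which 79 had a probe set and 59 were measured above background. Of 7 ligand genes, among them Tnf and Il1b, 0 were measured. With IFN-alpha at 1 h 2 of the 59 were called higher and 0 lower (5 and 0 with the block), beside 0.259% of all probe sets called in either direction (0.699% with the block). With IFN-gamma at 1 h the counts were 2 and 0 (7 and 1 with the block), beside 0.492% (2.22%). With IFN-alpha at 3 h they were 7 and 0 (12 and 0 with the block), beside 1.55% (3.06%), and with IFN-gamma at 3 h 6 and 0 (14 and 0 with the block), beside 1.99% (5.33%). The median difference of the 59 genes was 0.04 and -0.01 with IFN-alpha and IFN-gamma at 1 h and 0.02 and 0.06 at 3 h, and Benjamini-Hochberg adjustment was over all probe sets. This list too was chosen with earlier results known, so its counts are a description.

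Among receptors (8 of 10 measured), Tlr3, a sensor of double-stranded RNA, was at least 17.4-fold higher with IFN-alpha at 3 h and at least 2.06-fold higher with IFN-gamma. The TNF receptor gene Tnfrsf1a differed by 1.03 with IFN-gamma at 3 h (adjusted p = 0.449, and 6.75e-06 with the block), and Tlr2, a receptor for bacterial lipoproteins, by 0.78 with IFN-alpha (adjusted p = 1, and 0.000738 with the block). Among adaptors and kinases (16 of 21 measured), Map3k8, a kinase that the Nfkb1 precursor protein holds inactive, was 2.17-fold higher with IFN-alpha and 4.32-fold higher with IFN-gamma at 1 h. At 3 h it was at least 1.45-fold and at least 1.42-fold higher. Myd88, the adaptor of most Toll-like receptors, was 3.13-fold higher with IFN-alpha and 2.51-fold higher with IFN-gamma at 3 h.

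Of 13 other negative regulators measured, N4bp1, which binds ubiquitin and restrains NF-kB, rose 3.00-fold with IFN-alpha at 3 h (adjusted p = 0.00466). With IFN-gamma it differed by 0.52 (adjusted p = 1, and 0.00733 with the block). Of 19 other targets measured, Ccl2, a monocyte chemokine, was 4.84-fold and 4.85-fold higher with IFN-alpha and IFN-gamma at 3 h. Tapbp, of the MHC class I loading complex, was 3.21-fold and 2.78-fold higher. Il6 was higher with IFN-alpha by 1.99 at 1 h and 1.56 at 3 h and with IFN-gamma by 1.70 at 1 h. Cxcl1, a neutrophil chemokine, was 2.17-fold higher with IFN-gamma at 3 h and, like Tnfaip2, lower with IFN-alpha than with IFN-gamma (-1.32, adjusted p = 2.3e-05). Outside that list, other genes named for TNF induction (Tnfaip1, Tnfaip6, Tnfaip8 and Tnfaip8l1) were not called with either interferon. Tnfaip8, with IFN-gamma at 3 h, was called with the block (0.39, adjusted p = 0.0146, and 0.976 without it).

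In mock cells at 3 h against 1 h, 3 of the 59 pathway genes were higher (Tnfrsf1b, Traf2 and Otulin) and 13 lower, beside 5.45% of all probe sets called higher and 5.88% lower. The median was -0.17 beside 0.06 for all probe sets. The lower genes included Zc3h12a, an RNase that destroys cytokine transcripts (-2.24), the targets Cxcl1 (-2.17), Ccl2 (-2.18), Il6 (-2.09) and Ptgs2 (-1.04), and the receptor Tlr4 (-1.43). Of 8 called other targets 8 were lower.

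By group means, the transcripts most like Tnfaip2 were Fst, which encodes an activin antagonist (Pearson r = 0.990), Gclm, a subunit of the enzyme of glutathione synthesis (r = 0.980), and Hk2, a hexokinase (r = 0.965). Those most like Nfkbiz were Dusp6, a MAP kinase phosphatase (r = 0.997), the cytokine Csf3, whose means lay near background (r = 0.996) and Arid5b, a DNA-binding protein (r = 0.992). Each r is across 7 group means and is given as a description. For each member these were the 3 genes with the highest r among 4390 probe sets whose means span at least 1 log2. Fst, like Tnfaip2, was highest with IFN-gamma at 3 h (10.16) and 1 h (9.70) and lowest in mock cells at 3 h (6.09).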

How the data were processed

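Total RNA of NIH-3T3 cells was measured on 24 Affymetrix arrays in 7 groups of 3 or 4. The values are log2 signals deposited by the authors as the series' value table, made with GCRMA per the submitters' processing notes, whose version and settings are not given in the sources used here. Of the non-control probe sets, 34945 had 1 platform gene symbol, 932 several and 9160 none, and 64 control probe sets were left out. Probe sets above log2 4 on at least 3 arrays (19305) were fitted with limma 3.58.1 (R 4.3.3), as 7 group means which left 17 residual degrees of freedom. Each test was two-sided, with Benjamini-Hochberg adjustment over all 19305, and a call is an adjusted p under 0.05. Where the lower group lay below log2 4, a fold is given as a lower bound against log2 4.

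A gene's main probe set is the one with the highest mean over the 24 arrays. All member probe sets are named. Of the pathway list, genes called against mock are named, with up to 3 of the largest differences per role, and the 3 genes most like a called member. Members and lists were chosen with earlier results of these data known.

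The replicate number within a time was the block of a second fit on the 21 arrays with 4sU. Deviations from the group means of same-numbered arrays correlated in every pair (r from 0.465 to 0.914 over 12 pairs at 1 h, and from 0.128 to 0.646 over 9 pairs at 3 h, with a minimum of 0.1 asked), so the blocked value is given where it changes a call. The labels give no batch or date and do not say that replicates were separate cultures, so the p-values rest on differences among arrays that may be technical repeats. No arrays held identical values, and the number of arrays limits the precision. The fits were also run on simulated data in which all groups shared 1 spread per probe set. Those data could not show how the fits behave where the spread is wider at 1 h than at 3 h.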

Additional observations from a re-analysis of the deposited data

Results flagged for a closer look

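Among 48 groups of 4 arrays, 2 held an array far from the other 3, and chance gives about 1 in 20. Rel was 3.65 on replicate 3 of IFN-gamma at 1 h, against 3.80 to 3.82 on the others, all below background. Nfkbia (1449731_s_at) was 10.2 on the same array, against 10.7 to 10.8 on the others. Replicate 3 was also the lowest array of this probe set with IFN-alpha at 1 h (10.22, against 10.54 to 11.03) and in mock cells with 4sU (10.35, against 10.89 to 11.12).

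Responses differed between the times for 2 probe sets in the fit with the replicate block. The response of Bcl3 to IFN-alpha was lower at 3 h than at 1 h (-0.884, limma, adjusted p = 0.00304, and 1 without the block). Same-numbered differences were higher than mock in 1 of 3 pairs at 3 h and 4 of 4 at 1 h. The response of Nfkbiz (1417483_at) to IFN-gamma was higher at 3 h than at 1 h (0.586, limma, adjusted p = 0.0126, and 1 without the block), with 3 of 3 pairs higher than mock at 3 h and 4 of 4 at 1 h. The 4sU dose and its window also differed between the times.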

How the results depend on the processing

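Under the alternatives run, 0 of the member results reversed: 2628 of the single probe set values kept their direction and side of the threshold, 54 newly passed it and 12 no longer did. The 12 were Tnfaip2 with IFN-gamma at 1 h, against mock and against IFN-alpha, with only the arrays of the compared groups, and Nfkbia 1420089_at between mock times under 8 alternatives. Of the counts of member probe sets called, 151 kept within 1.5 times and 18 did not. With the replicate block the count was 2 in place of 0 for IFN-alpha against mock at 1 h, 6 in place of 2 for IFN-gamma at 1 h, 6 in place of 3 for IFN-gamma at 3 h and 6 in place of 2 for IFN-alpha against IFN-gamma at 3 h. It was 1 in place of 0 for the change of each interferon's response, and the block changed no other call than those given with the results. The block within 1 time alone, chosen after seeing the data, gave 1, 5, 5 and 6 for the first 4 of these. It called 0.347%, 0.995%, 8.89% and 7.59% of all probe sets in those comparisons. Arrays of that time without the block gave 5 for IFN-gamma at 3 h, beside 5.84% of all probe sets. Array weights gave 6 for IFN-gamma at 3 h, 8 for IFN-alpha against IFN-gamma at 3 h (2 higher, 6 lower) and 2 in place of 0 for 4sU, and called 10.5%, 10.2% and 20.1% of all probe sets in these comparisons. Only the arrays of the compared groups gave 0 for IFN-gamma at 1 h, 5 for it at 3 h, and 0 at 1 h and 4 at 3 h for IFN-alpha against IFN-gamma. That setting called 0.145% and 4.93% of all probe sets for IFN-gamma at 1 h and 3 h. Between the interferons it called 0.0518% and 4.5%. Leaving out 1 array at a time gave 2 to 3 for IFN-gamma at 1 h, 3 at 3 h, 2 between interferons at either time, and 6 to 7 between mock times. The shares of all probe sets were then 0.394% to 0.513% for IFN-gamma at 1 h and 1.54% to 1.63% at 3 h. Between interferons they were 0.264% to 0.425% at 1 h and 1.21% to 1.25% at 3 h, and between mock times 5.1% to 13.9%. The cause of these moves was not tested. Counts over all probe sets moved too: IFN-gamma at 1 h gave 95, and 428 with the block or 28 with only its 2 groups, and 4sU gave 6, and 3888 with array weights. Signals near log2 4 (Rel, Tnfaip3 at 3 h) limit what can be read from those members.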
